A study of Mus musculus with 24 samples.

Results

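MHC class II molecules present peptides from ingested proteins to CD4+ T cells, and the genes described here encode parts of that machinery: H2-Ab1, H2-DMa, H2-DMb1, H2-DMb2 and Cd74. These are 5 of the 8127 genes that a probe names on the array. They were found as the probes whose target identifier carries their NCBI gene ID, 6 of 46116 probes. H2-Ab1 had 2 probes and every other gene had 1. Mice were left unirradiated (control) or lived under γ-rays from a 137Cs source for 485 days, 22 h per day, at a low (0.032 μGy/min), mid (0.65 μGy/min) or high (13 μGy/min) dose rate. The summed doses were 21, 420 and 8000 mGy. Organs of 12 mice, 3 per group, gave 12 kidney and 12 testis arrays. The labels give neither strain nor age, nor which kidney and testis came from the same mouse.

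Class II molecules are built in antigen-presenting cells (dendritic cells, macrophages and B cells), as an α and a β chain that pair in the endoplasmic reticulum with the invariant chain. The invariant chain leads the pair to endosomes and blocks its groove, and the non-classical molecule DM then exchanges the last invariant chain fragment for an antigenic peptide. In the kidney, class II is carried by resident mononuclear phagocytes between the tubules, and tubule cells can be induced to make it by interferon-γ. The transactivator CIITA switches these genes on together through RFX, CREB and NF-Y factors bound at the X and Y boxes of their promoters.

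The genes were picked with results of these arrays known, and they are treated here as chosen by their kidney values at the low dose rate against control. For that reason the kidney values of the low dose rate against control are a description here, with no test. The other kidney comparisons use the same control arrays. Levels below are normalized log2 intensities, on which a difference of 1 is a doubling, and errors beside differences are limma standard errors. These are bulk tissue RNAs, so more cells of a type and more RNA per cell cannot be told apart.

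The arrays carried the RNA their labels name. The 4 proximal tubule markers with a probe summed to 54788.1 or more intensity units on every kidney array, and the protamine gene Prm2, which packs sperm DNA, was at 48244.3 or more on every testis array and was not kept in kidney.

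At the low dose rate, all 6 probes were higher in irradiated than in control kidney, with log2 differences of +0.23 to +0.71 and a median of +0.56. The median over all 10903 probes kept was -0.01. On every probe each low array was above each control array, which 5.73% of all probes kept also showed. Since the members are treated as chosen on this contrast, nothing is read from that count. At the mid and high dose rates the medians were +0.05 and +0.06. Control probe summaries in the kidney table, not analysed here beyond a first look, had a higher mismatch signal relative to matched signal on the mid and high arrays than on the low and control arrays, and its part in the mid and high values was not tested.

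Cd74 encodes the invariant chain. Its kidney levels were 12.12, 11.82 and 11.42 on low replicates 2, 3 and 4, against 10.68, 11.27 and 11.26 on control replicates 2, 3 and 4. Low replicate 2 was the highest of the 12 arrays, and control replicate 2 the lowest. In deposited intensity, the low arrays had 4482.3, 3632.7 and 2997.8 units and the control arrays 1891.2, 2627.6 and 2455.8 units, all with a detection score of 1. The log2 difference was +0.71 ± 0.22 (SE, n = 3 each), with means of 11.78 ± 0.35 at the low dose rate and 11.07 ± 0.33 in control (SD).

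H2-Ab1 encodes the β chain of the class II molecule I-A. Its probe 4230427 was at 11.95, 11.53 and 11.26 on the low arrays, against 11.05, 11.12 and 10.99 on the control arrays, a difference of +0.52 ± 0.15. Its other probe, 4810050, was at 11.58, 11.27 and 10.97 on the low arrays, against 10.24, 10.75 and 10.77 on the control arrays (+0.68 ± 0.25). On both probes the low arrays stood in the same order, with replicate 2 highest and replicate 4 lowest, and neither overlapped with control.

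H2-DMa and the H2-DMb genes encode the α and β chains of DM, the editor of the peptide in the groove. H2-DMa was the dimmest member, at 192.5, 140.2 and 119.7 intensity units on the low arrays, against 50.6, 87.8 and 78.1 on the control arrays. Its detection score was above 0.99 on all 3 low arrays but on 1 of 3 control arrays. The low arrays were all higher, with means in the ratio 2.09, yet the log2 difference was only +0.23 ± 0.07. The background correction used a noise SD of 175 to 218 intensity units per array, and with a noise SD taken from central scores (19.8 to 28.4) the difference was +0.92.

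H2-DMb1 was at 8.36, 7.91 and 7.90 on the low arrays, against 7.53, 7.79 and 7.64 on the control arrays (+0.40 ± 0.12, or +0.57 with the central noise). H2-DMb2 was at 9.36, 8.93 and 8.87 on the low arrays, against 8.08, 8.62 and 8.69 on the control arrays (+0.59 ± 0.21). The genes for these β chains are neighbours on mouse chromosome 17 and are paralogs, and the sources used here give no probe sequence, so signal from the other gene on either probe cannot be told apart.

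**Figure D1:**
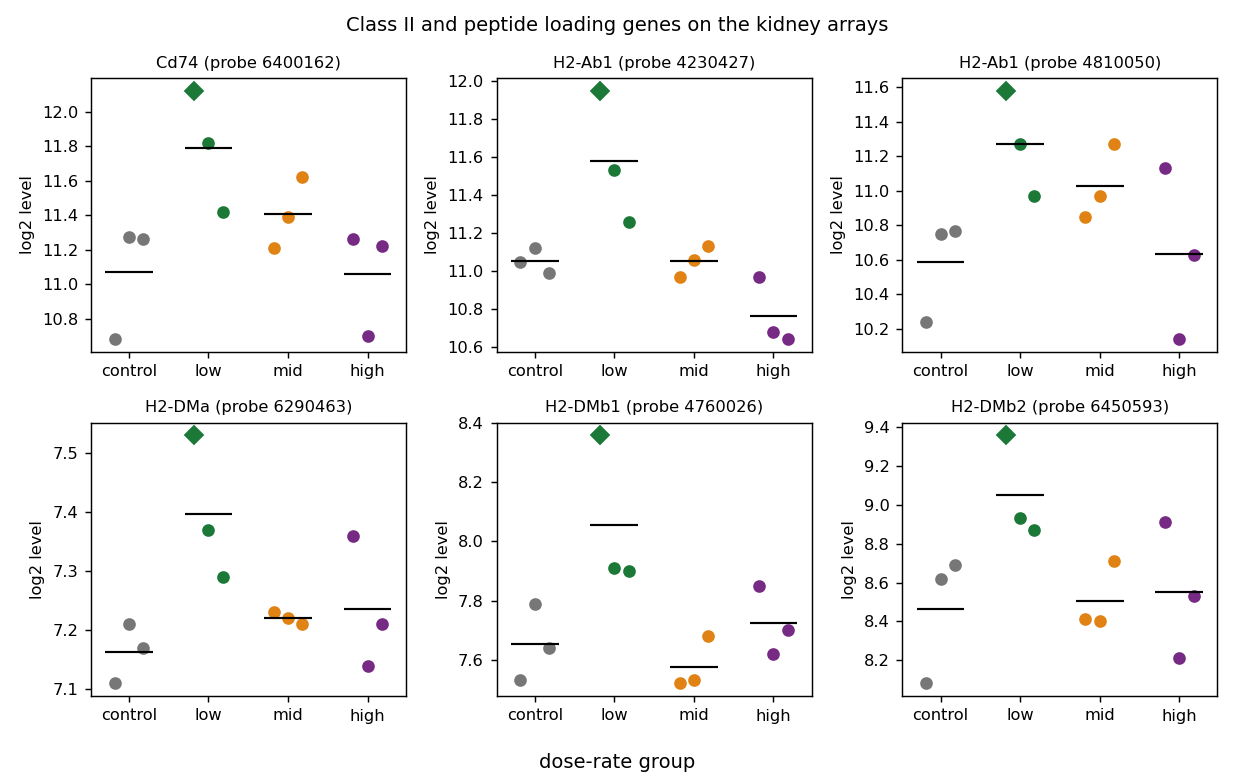
Normalized log2 level of each member probe on the 12 kidney arrays (points) by dose-rate group, with the group mean as a line (n = 3 per group) and low replicate 2 as a diamond. All low arrays lie above all control arrays on each of the 6 probes, and the diamond is the highest point in each panel.

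The promoters of the H2-DMb genes are shown because both carry the class II control elements in the same spacing. They come from RefSeq (GRCm38.p6, plus strand) and run from 250 bases before to 50 bases after a start site, at chr17:34152941-34153240 for H2-DMb1 and chr17:34144999-34145298 for H2-DMb2. The start site is the first base of the gene for H2-DMb1, while for H2-DMb2 it lies inside the annotated gene. Capitals mark an X box core (AACNGATG) and a Y box (ATTGG).
H2-DMb1: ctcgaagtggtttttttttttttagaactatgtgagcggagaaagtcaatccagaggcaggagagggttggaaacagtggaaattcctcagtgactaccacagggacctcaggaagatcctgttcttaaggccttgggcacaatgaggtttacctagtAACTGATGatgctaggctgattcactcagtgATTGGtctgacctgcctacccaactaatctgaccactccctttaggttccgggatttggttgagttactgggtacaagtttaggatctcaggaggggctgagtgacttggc
H2-DMb2: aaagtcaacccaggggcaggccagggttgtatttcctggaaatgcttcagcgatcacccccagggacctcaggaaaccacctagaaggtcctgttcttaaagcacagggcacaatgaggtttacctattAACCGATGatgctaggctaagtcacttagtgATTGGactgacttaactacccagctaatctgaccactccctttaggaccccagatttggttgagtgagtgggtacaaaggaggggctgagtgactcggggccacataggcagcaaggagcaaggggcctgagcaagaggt

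In each window 23 bases separate the marked motifs, and the X core begins 92 bases before the start site of the H2-DMb1 window and 121 bases before that of the H2-DMb2 window. The windows were identical at 208 of 247 aligned bases (84.2%), a share that leaves out 106 gap bases. Searched on both strands, AACNGATG occurred in 2.32% of 32851 promoter windows and ATTGG in 37.4%. The pair on the same strand, with at most 40 bases between, occurred in 17 windows (0.0517%), which included those of H2-DMb1, H2-DMb2, H2-Eb1 and H2-Eb2. Of 31 class II system genes looked for, 22 had a window in the table and these 4 had the pair. The windows of H2-DMa held no AACNGATG, and no window was used for H2-Ab1 or Cd74.

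The shift at the low dose rate was unequal between animals. Averaged over the 6 probes, low replicates 2, 3 and 4 stood +0.82, +0.47 and +0.29 above the control mean, against -0.22, +0.13 and +0.09 for control replicates 2, 3 and 4. Low replicate 2 was the highest of the 12 kidney arrays on 6 of 6 probes. Control replicate 2 was the lowest on 3 of them. The kidney injury genes Havcr1 and Spp1 averaged +0.79 on low replicate 2, against +0.10 and +0.05 on low replicates 3 and 4, and their part in the class II values was not tested. Without low replicate 2 the median difference was +0.39, and without control replicate 2 it was +0.46.

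Across all 12 kidney arrays the 5 genes moved together. Pearson's r over the 10 pairs ran from 0.76 (Cd74 and H2-DMb1) to 0.95 (Cd74 and H2-Ab1), as a description of arrays that share RNA, labelling and normalization. The members are treated as chosen on the low and control arrays among these, and that choice by itself can raise r. Without the 2 arrays farthest from the median, r ran from 0.44 (Cd74 and H2-DMb1) to 0.94 (Cd74 and H2-Ab1). The arrays of a group also differed in step: after group means were removed, r was 0.89 for Cd74 and H2-Ab1 and 0.94 for H2-Ab1 and H2-DMa.

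**Figure D2:**
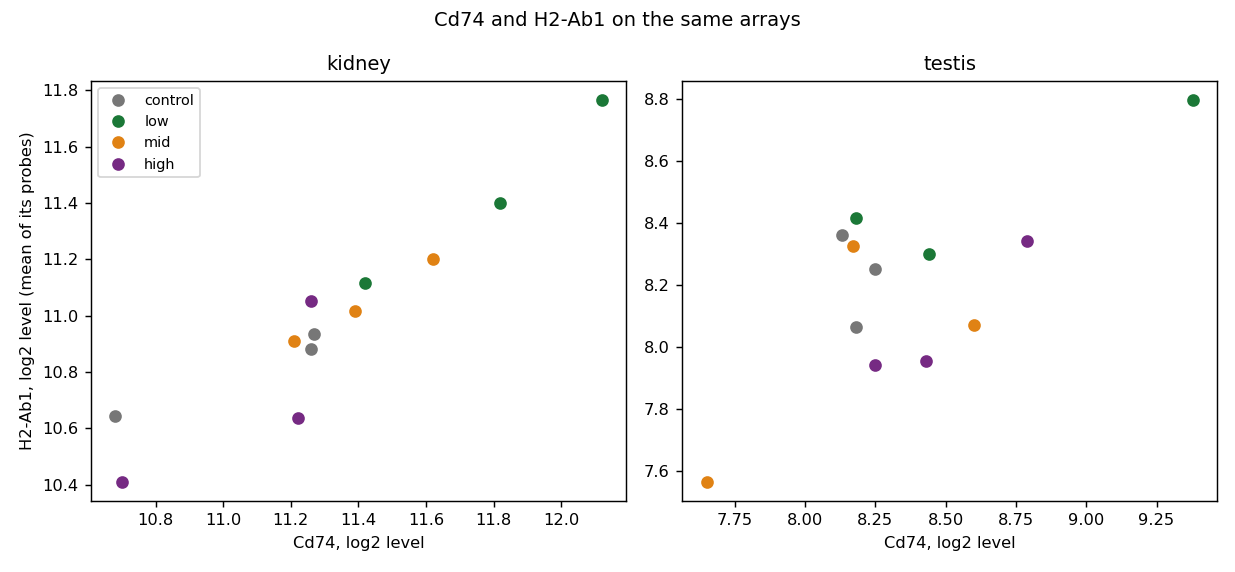
Log2 level of Cd74 (horizontal axis) against that of H2-Ab1, the mean of its probes (vertical axis), on each of the 12 arrays of kidney (left) and testis (right), coloured by dose-rate group. The kidney arrays, on which the members are treated as chosen, lie near a line (r = 0.95). In testis r = 0.72 rests on the highest and lowest arrays.

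At the mid dose rate no member passed in kidney (0 of 6, limma adjusted p from 0.476 to 0.992, and 0 at unadjusted p under 0.05), where 0.312% of all probes were called. Cd74 was at 11.21, 11.39 and 11.62 on mid replicates 1, 3 and 4, a difference of +0.33 ± 0.22 from control, and the groups overlapped. H2-Ab1 gave +0.44 ± 0.25 on probe 4810050, with every mid array above every control array, and -0.01 ± 0.15 on probe 4230427. H2-DMa was above control on every mid array too (+0.06 ± 0.07, or +0.32 with the central noise), so 2 of 6 probes were, against 9.67% of all probes. For H2-DMa the nearest arrays, mid replicate 4 and control replicate 3, were both at 7.21 after rounding, near background. H2-DMb1 was at -0.07 ± 0.12 and H2-DMb2 at +0.04 ± 0.21.

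The high dose rate gave no call in kidney either (0 of 6, limma adjusted p from 0.478 to 0.994, and 0 at unadjusted p under 0.05), with 0.504% of all probes called. Cd74 was at 11.26, 10.70 and 11.22 on high replicates 1, 2 and 3 and differed from control by -0.01 ± 0.22. H2-Ab1 on probe 4230427 was at 10.97, 10.68 and 10.64, below every control array, as were 7.36% of all probes, with a difference of -0.29 ± 0.15. With array weights in the fit this probe alone of the 6 was called (-0.40 ± 0.10, limma adjusted p = 0.0211), in a fit that called 18.9% of all probes. Its other probe gave +0.05 ± 0.25, and H2-DMa, H2-DMb1 and H2-DMb2 gave +0.07 ± 0.07, +0.07 ± 0.12 and +0.09 ± 0.21.

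The differences from control on the H2-Ab1 probes were thus unlike in value at the mid and high dose rates. The log2 gap of probe 4230427 over probe 4810050 was +0.12, +0.09 and -0.15 on the mid arrays and -0.17, +0.54 and 0.00 on the high arrays, against +0.81, +0.37 and +0.22 on the control arrays. On the low arrays it was +0.37, +0.26 and +0.29. The low and high gaps overlapped with the control gaps, and the mid gaps lay below them. The sources used here do not say which part of the transcript each probe reads, and the difference between the probes was not tested.

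**Figure D3:**
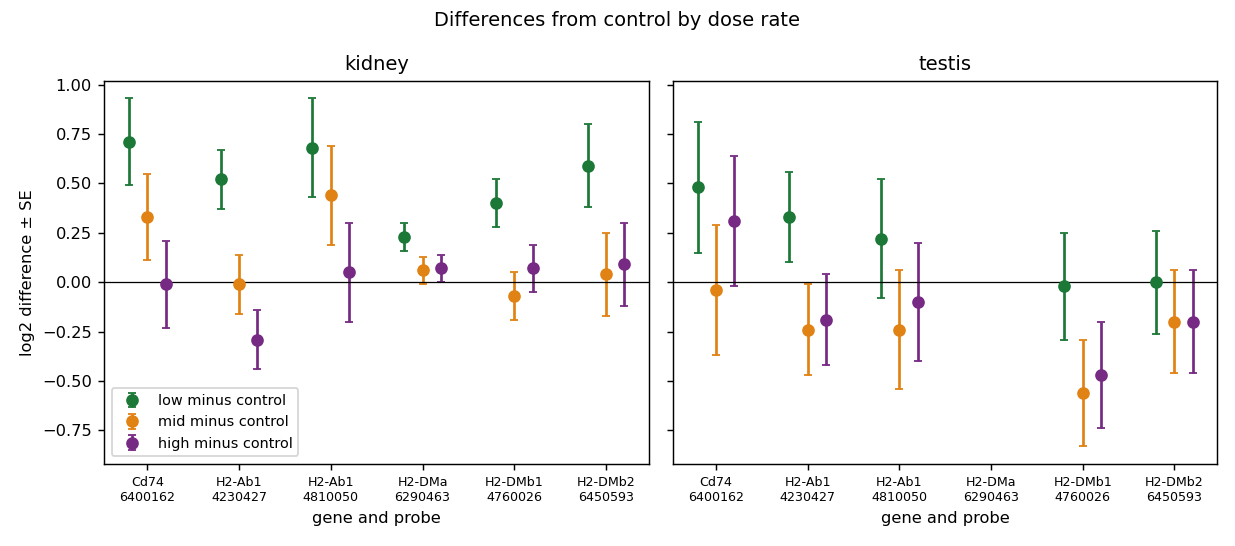
Log2 difference from control of each member probe (points, with limma SE as bars, n = 3 per group) for the low, mid and high dose rates in kidney (left) and testis (right). All 6 low points in kidney lie above 0, from +0.23 to +0.71; H2-DMa in testis has no points, as 1 of 3 control arrays was above the noise limit.

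Few other genes of the class II system were measured in kidney. The proteases and accessory proteins of the class II route had 5 of 18 genes named on the array and 3 kept in kidney, with a median of -0.02 at the low dose rate and no array separation (0 of 3). Ifi30, the thiol reductase that opens disulfides of antigens, was at -0.02, the cathepsin gene Ctsb at -0.07 and Marchf8, a ubiquitin ligase for membrane proteins, at +0.01. None (0 of 3) was called by limma at the mid or high dose rate, where the list medians were +0.11 and +0.26. At the high dose rate Ctsb was at +0.31 ± 0.09 and Marchf8 at +0.26 ± 0.07. H2-Aa, H2-Eb1 and Ciita had no probe named here. Among the regulators, 3 of 8 were kept: Rfxank and Rfxap, subunits of RFX, were at -0.04 and -0.02 and the NF-Y subunit gene Nfyb at -0.08 at the low dose rate. Apart from Ctsb these genes were dim, where the background correction compresses differences. With the central noise, Ifi30 was at -0.03, Marchf8 at +0.04, Rfxank at -0.23, Rfxap at -0.05 and Nfyb at -0.15.

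Genes of class I presentation, which serves CD8+ T cells, had a median of +0.12 over 5 genes kept in kidney at the low dose rate. As a list they averaged +0.14, +0.19 and +0.09 on low replicates 2, 3 and 4, with replicate 3 highest. The control replicates 2, 3 and 4 were at -0.01, 0.00 and +0.01. H2-T23 was at +0.35 and the immunoproteasome gene Psmb10 at +0.23. With the central noise the dim gene H2-K1 was at +0.40, H2-T23 at +0.32, Psmb10 at +0.23, Psmb8 at +0.09 and Tapbp at -0.08. The 7 interferon response genes kept had a median of +0.16, and 3 of them were above control on every low array, against 5.73% of all probes. The largest values were for the receptor gene Ifngr2 (+0.38 ± 0.25, overlapping with control), the chemokine gene Cxcl9 (+0.35 ± 0.13) and the transcription factor gene Irf1 (+0.26 ± 0.11). The smallest was for Irf7 (+0.01 ± 0.10). Apart from Ifngr2 these genes were dim, and the order depended on the noise estimate. With the central noise Cxcl9 was at +0.65, Irf1 at +0.51, Irf9 at +0.44, Ifngr2 at +0.31 and Irf7 at +0.03. As a list the 7 interferon response genes averaged +0.32, +0.17 and +0.11 on low replicates 2, 3 and 4. The control replicates 2, 3 and 4 were at +0.13, +0.02 and -0.15, so the groups overlapped. Over all 13 lists with a gene kept in kidney, 0 of 40 genes were called by limma at the mid or high dose rate.

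Markers of antigen-presenting and lymphoid cells moved with the class II genes in part. Of the 16 macrophage markers, 6 had a named probe and 4 were kept in kidney (Lyz2, C1qa, C1qb and Csf1r), all of them positive at the low dose rate with a median of +0.72. Their summed intensity was 1447.2 to 2802.6 on the low arrays, 1134.7 to 1454.9 on the mid arrays and 1059.6 to 1794.2 on the high arrays, against 965.5 to 1124.0 on the control arrays. Array by array, the list averaged +1.19, +0.56 and +0.25 on low replicates 2, 3 and 4, the same order as the class II genes. Csf1r, the receptor that macrophages need for survival, was at +0.03, and Cd68 and Itgam were not kept. Csf1r was dim (7.12 in control), and with the central noise it was at +0.15, +0.30 and +0.41 at low, mid and high.

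The immunoglobulin genes Ighm and Igkc, products of B and plasma cells, summed to 9996.5 to 16219.0 on the low arrays, 8958.8 to 18103.0 on the mid arrays and 2414.5 to 13420.5 on the high arrays, against 7359.5 to 9098.8 on the control arrays. T cell markers (2 of 9 kept, Cd3e and Cd247) summed to 257.1 to 341.4 on the low arrays, against 238.3 to 279.2 on the control arrays. The dendritic cell list had 1 of 9 genes kept, Batf3 (+0.06, or +0.30 with the central noise). Of the pan-leukocyte genes, Cd52 was kept and Ptprc was not. Cd52 was at +0.08 ± 0.06 at the low dose rate and +0.18 ± 0.06 at the mid and high dose rates. With the central noise these were +0.56, +1.16 and +1.18 at low, mid and high. Its control arrays had only 3.7 to 42.2 intensity units, near background. Every mid array was above control, as were 9.67% of all probes. The endothelial genes Pecam1, Emcn and Eng were at +0.11, +0.03 and +0.01 at the low dose rate. Havcr1 and Spp1 were at +0.25 and +0.37 at the low dose rate. At the mid and high dose rates Spp1 was at +0.62 ± 0.20 and +0.67 ± 0.20, and Havcr1 at -0.01 and +0.08. Proximal tubule markers summed to 55038.5 to 64124.4 on the low arrays, against 62302.7 to 65701.3 on the control arrays, and averaged -0.26 on low replicate 2. They summed to 54788.1 to 59546.2 on the mid arrays, all below control, and to 58041.0 to 64078.7 on the high arrays. The part of these cells in the class II values was not tested.

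**Figure D4:**
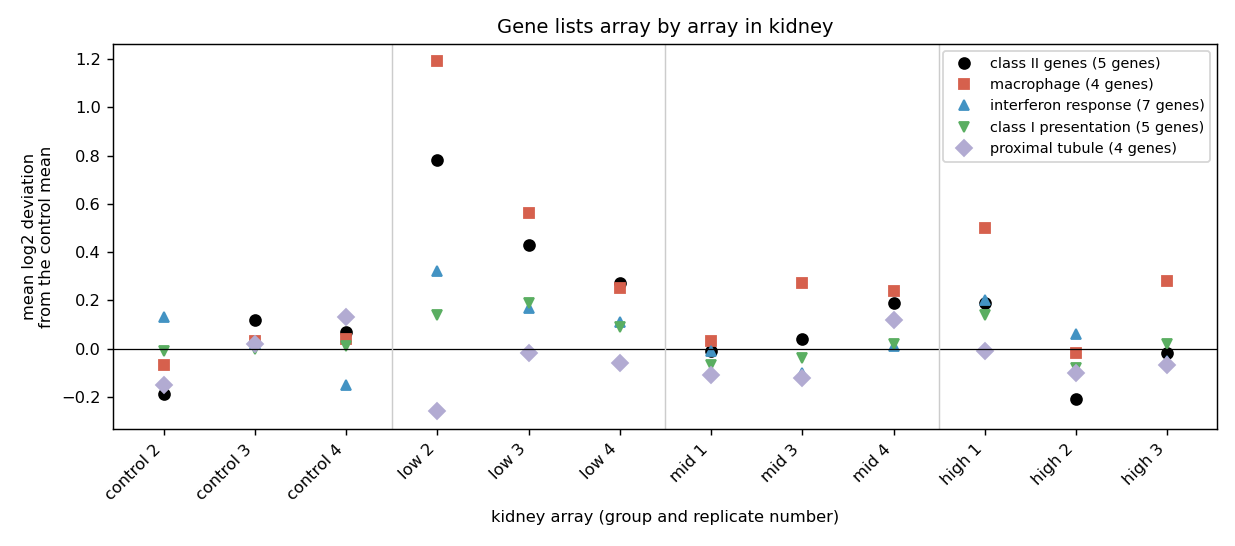
Mean log2 deviation from the control mean (vertical axis) of the class II genes and of 4 other gene lists on each of the 12 kidney arrays (horizontal axis, by group and replicate number), 1 probe per gene. Class II and macrophage genes are highest on low replicate 2 (+0.78 and +1.19) and stand in the same order over the low arrays, while the proximal tubule list is lowest there (-0.26).

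The 5 named genes whose kidney levels followed the mean of the 6 class II probes most closely over the 12 arrays, out of 3432 named probes, were Arpc1b (r = 0.94), a subunit of the actin-nucleating Arp2/3 complex, Ifitm1 (0.91), Gimap7 (0.88), the proteasome activator gene Psme1 (0.88) and the ribosomal protein gene Rps3 (0.87). These coefficients describe the arrays that chose the members and are given with no test.

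In testis, Cd74 and both H2-Ab1 probes were above the noise limit on all 12 arrays, H2-DMb1 too, and H2-DMb2 on 11. H2-DMa was above it on 5 of 12 arrays. Deposited intensities of Cd74 were 204.6 to 663.5 units in testis and 1891.2 to 4482.3 units in kidney, which cannot be set against each other since how the testis values were normalized is unknown. None of the 6 probes was called in testis at the low, mid or high dose rate (0 of 6 each by limma, and 0 of 6 each at unadjusted p under 0.05), where 0.0174%, 0.0521% and 0.0174% of 28816 probes were called.

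At the low dose rate, Cd74 in testis was at 8.18, 9.38 and 8.44 on low arrays L117, L118 and L119, against 8.18, 8.13 and 8.25 on control arrays C102, C109 and C110. Array L118 stood apart from the others, and the rest overlapped with or lay just above the controls. The difference was +0.48 ± 0.33 (limma adjusted p = 1.0). H2-Ab1 showed the same array highest, with 8.95, 9.43 and 8.76 on the low arrays, against 8.55, 8.85 and 8.75 on the control arrays for probe 4230427 (+0.33 ± 0.23), and 7.88, 8.16 and 7.84 against 7.58, 7.87 and 7.75 for probe 4810050 (+0.22 ± 0.30). H2-DMb1 and H2-DMb2 were at -0.02 ± 0.27 and 0.00 ± 0.26.

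Over all 6 probes the testis median at the low dose rate was +0.11, +0.02 without low array L118 and +0.32 without low array L117. With median scaling in place of quantile normalization it was -0.08, so its sign is not settled. Array L118 averaged +0.53 above the control mean over the class II probes, with +0.52 for the 3 macrophage genes kept (Lyz2, C1qa and C1qb). Ighm and Igkc summed to 203.2 to 2227.4 intensity units on the low arrays, against 96.2 to 413.0 on the control arrays. Their part in the values of array L118 was not tested.

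**Figure D5:**
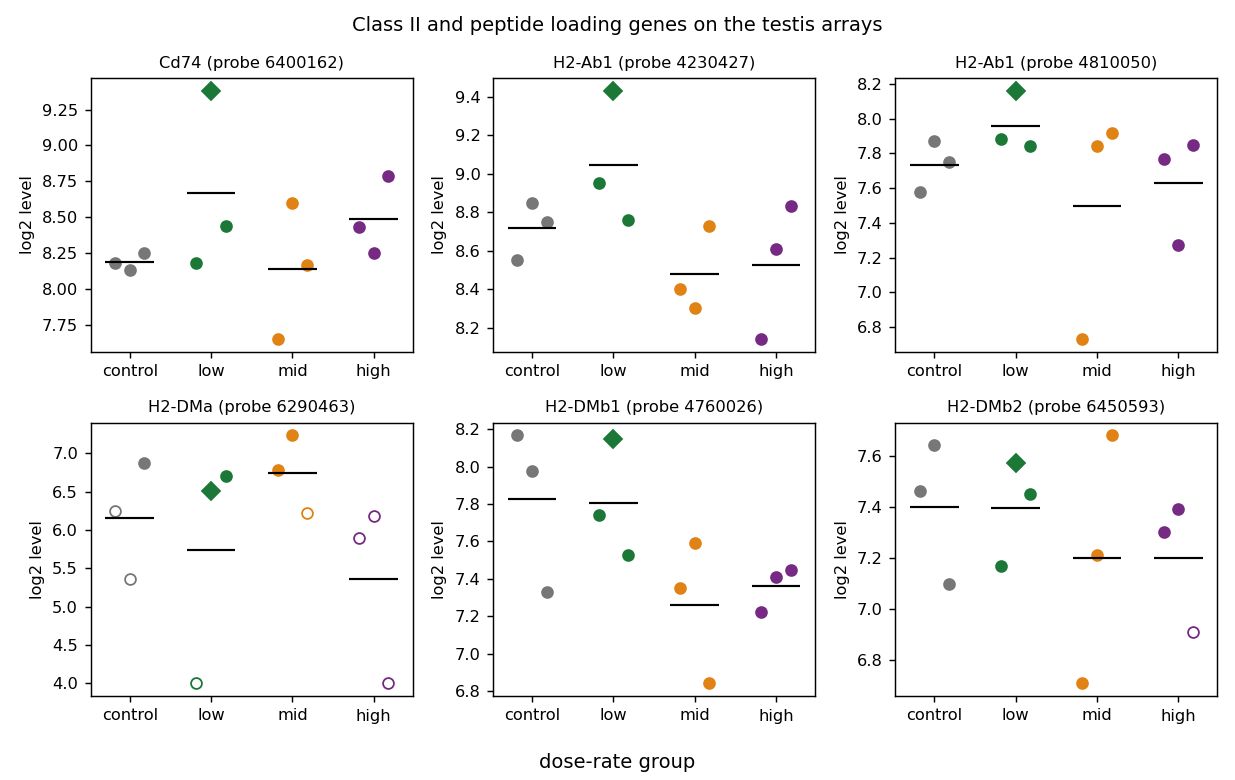
Normalized log2 level of each member probe on the 12 testis arrays (points) by dose-rate group, with the group mean as a line (n = 3 per group), low array L118 as a diamond and arrays not above the noise limit as open circles. Array L118 is the highest array for Cd74 (9.38) and for H2-Ab1, and H2-DMa is above the limit on 5 of 12 arrays.

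The mid and high dose rates gave testis medians of -0.22 and -0.20 over the 6 probes, within the spread of the arrays. H2-DMb1 was at 7.35, 7.59 and 6.84 on mid arrays M125, M129 and M130 and at 7.22, 7.41 and 7.45 on high arrays H132, H134 and H139, against 8.17, 7.98 and 7.33 on the control arrays. Its differences of -0.56 ± 0.27 (limma adjusted p = 0.679) and -0.47 ± 0.27 (limma adjusted p = 0.628) did not pass, and control array C110 lay among the irradiated arrays. Cd74 was at 7.65, 8.60 and 8.17 on the mid arrays (-0.04 ± 0.33) and at 8.43, 8.25 and 8.79 on the high arrays (+0.31 ± 0.33, limma adjusted p = 0.82). The high arrays were all above the control arrays, the nearest by less than the rounding of these levels, as were 7.84% of all probes.

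H2-Ab1 differed in testis by -0.24 ± 0.23 and -0.24 ± 0.30 at the mid dose rate and by -0.19 ± 0.23 and -0.10 ± 0.30 at the high dose rate on its probes 4230427 and 4810050. The lowest array on probe 4810050 was mid array M125, at 6.73. Without that array the median over all member probes at the mid dose rate was +0.09. H2-DMb2 gave -0.20 ± 0.26 at each of these dose rates. H2-DMa was at 4.00 (the floor), 6.51 and 6.71 on the low arrays and at 6.79, 7.24 and 6.22 on the mid arrays, against 6.25, 5.36 and 6.88 on the control arrays. These groups overlapped. No fold is given for H2-DMa in testis, since 1 of 3 control arrays and 0 of 3 high arrays were above the noise limit.

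In testis the genes followed each other less closely in value. Over 10 pairs of genes and 12 arrays, Pearson's r ran from -0.30 to 0.72. The low end came from the pairs with H2-DMa (-0.30, -0.10, -0.05 and 0.13), which was above the noise limit on 5 of 12 arrays. The pairs without H2-DMa ran from 0.23 to 0.72. The highest was for Cd74 and H2-Ab1 (r = 0.72, permutation p = 0.013, adjusted 0.13 over the 10 pairs; Spearman's rho = 0.27, permutation p = 0.39, adjusted 0.837), and none of the pairs passed after adjustment. Without the 2 arrays farthest from the Cd74 median r was -0.09, so this relation rests on those arrays. Whether kidney and testis differed in how the members moved together was not tested. Over the 15 lists with a gene kept in testis, 0 of 52 genes were called by limma at each dose rate. Among the regulators, Nfyb was at -1.05 ± 0.32 at the high dose rate (limma adjusted p = 0.364). Creb1, with 1 of its 2 probes kept, averaged 4.00, the floor, on the high arrays, against 6.42 on the control arrays. It was not called either (limma adjusted p = 0.321). The 5 named genes that followed the mean of the 6 class II probes most closely in testis came out of 6926 named probes. They were 2810021J22Rik (r = 0.86), Dclre1b (0.84), Zfp131 (0.81), Bhlha15 (0.80) and Zmiz1 (0.79). That mean includes H2-DMa, which was above the noise limit on 5 of 12 arrays and varied widely, so this ranking is given with no test and little weight.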

How the data were processed

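RNA of 12 kidney and 12 testis samples was read on Illumina Mouse-6 arrays. Per the file headers, the authors made the kidney table in BeadStudio 1.5.0.34 with rank-invariant normalization, and its signal is a linear intensity with values below 0. A detection score, deposited as a fraction from 0 to 1, and a bead number stand beside each signal. The other 23 per-sample columns were not used. Testis intensities come from the deposited value table, for which no normalization is named in the labels or headers.

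Probes were named by the zero-padded NCBI gene ID in their target identifier, looked up in RefSeq's mouse table (GRCm38.p6), which named 9832 of 46116 probes. Kidney signals were corrected by normexp with negative control moments inferred from the detection scores, the method of neqc in limma 3.58.1 (R 4.3.3, offset 16), then quantile normalized and logged (log2), and the 10903 probes with a score over 0.99 on 3 or more arrays were tested. Testis signals were floored at 16, put on a log2 scale, and quantile normalized, and the 28816 probes that exceeded the array median on 3 or more arrays were tested. The testis noise limit is percentile 99 of the values below 0, mirrored around 0. All 12 arrays of a tissue entered a single limma fit, with a two-sided moderated test of each dose rate minus control and Benjamini-Hochberg adjustment over all probes kept, at a threshold of 0.05. The script was tested on simulated data. Correlations in testis used 100000 permutations.

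The members and gene lists were chosen with earlier results of these data known. The naming rule covered every member probe, the genes of each list with the largest differences (up to 3 per list and tissue) and the 5 named genes most like the members in each tissue. In testis most lists are given only by their counts. Csf1r and the marker genes named as not kept or without a probe were added after their values were seen. Kidney control and low arrays share replicate numbers 2, 3 and 4, and the deviations of same-numbered arrays from their group means correlated at 0.13 to 0.34. All 6 arrays, which form only 3 same-numbered pairs, correlated best with their own number. The replicate number was therefore entered as a block in an alternative fit, while the main fit used no pairing. Over all groups, 13 same-numbered pairs ran from -0.17 to 0.47 and 41 different-numbered pairs from -0.49 to 0.54, so the ranges overlapped. Background correction, noise estimate, normalization, filter, arrays in the fit, array weights, variance prior, replicate block and each array left out in turn were the alternatives. The precision of every value is limited by 3 arrays per group.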

Additional observations from a re-analysis of the deposited data

How the results depend on the processing

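The kidney median at the low dose rate ran from +0.37 with array weights to +0.68 without low replicate 4. The members are treated as chosen on this contrast, so its sign under the alternatives is only a description. Leaving out a mid or high array could not move it from +0.56. At the mid and high dose rates the kidney medians ran from -0.01 to +0.18 and from -0.11 to +0.14, so their sign is not settled. With array weights 1 member was called in kidney at the high dose rate; no other alternative called a member there, at the mid dose rate or in testis. With each array left out in turn, the testis median ran from +0.02 (without low array L118) to +0.32 (without low array L117) at the low dose rate, from -0.36 to +0.09 at the mid dose rate (+0.09 without mid array M125) and from -0.26 to -0.10 at the high dose rate (-0.10 without control array C109), and the cause was not tested. With the replicate number as a block the kidney medians were +0.56, +0.02 and +0.01 at low, mid and high, with 0 members called at mid and high. No paired analysis was possible in testis because the arrays share no numbers. Without H2-DMa, an alternative chosen after seeing the data, the testis medians were +0.22, -0.24 and -0.19. Median scaling turned the testis median at the low dose rate to -0.08. H2-DMa in kidney is near background, so its size depends on the noise estimate: at the low dose rate it was +0.23, +0.92 with central noise and +1.06 without background correction. Over all probes, the calls ran across the alternatives from 0 to 43, 0 to 1594 and 0 to 2063 in kidney at low, mid and high, against 0, 34 and 55 reported, with the highest counts under array weights. In testis they ran from 0 to 12, 0 to 216 and 0 to 343, against 5, 15 and 5.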
